A study of Mus musculus with 34 samples.

Results

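Adult mouse lung was measured on 2 arrays, labelled lung replicate 1 and lung replicate 2, of the 34 arrays in the series. They were taken by their tissue label and set against the 14 arrays of the other 7 adult tissues, namely brain, colon, kidney, liver, muscle, pancreas and spleen, with 2 arrays each. All 16 arrays carry DNA of 3 month old C57Bl/6 mice with no treatment or transgene. Both lung arrays are from females. Both colon and both pancreas arrays are from males, and each of brain, kidney, liver, muscle and spleen has a female replicate 1 and a male replicate 2. The labels do not say whether the 2 lung samples came from separate animals, so the tests below measure the spread between these samples, which may in part be technical. The study set such tissues beside embryos and ES cells, and the rest of the series (embryos, ES cells, teratomas and pancreatic cells) enters here only where 5 embryo arrays are given for comparison and in one alternative fit over all 34 arrays. The question here is which CpG islands carry another methylation level in lung than elsewhere in the adult animal.

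CpG islands are stretches of DNA rich in the dinucleotide CG, and most of them lie at gene starts and stay free of methylation in every tissue. A smaller set is methylated in all somatic cells, among them the starts of germline genes, and imprinted genes carry methylation on the copy from only one parent. Some islands at developmental genes gain methylation in particular tissues. Lung epithelium arises from the foregut endoderm and is defined by the homeobox factor Nkx2-1, which works together with forkhead factors such as Foxa1 and Foxa2, while Tbx, Foxf and Gli factors act in the surrounding mesenchyme. The assay was methylated DNA immunoprecipitation (mDIP), which enriches sheared DNA with an antibody that binds 5-methylcytidine. On each Agilent CpG island array the enriched DNA was labelled with Cy5 and the unenriched input of the same sample with Cy3. The log10 ratio of bound over input was turned into a Z-score over the probes of an array, and an island was scored by averaging the Z-scores of its probes, at least 3, into an island methylation score (IMS). An IMS of 0 is therefore the average probe of that array and 1 unit is 1 SD of its probes. An IMS above 0.75 is called methylated here and an IMS below 0 unmethylated. In all, 13336 autosomal islands with 3 to 40 probes were scored on all 16 arrays, and 11406 of them carry a gene name. Since a tissue holds many cell types, an intermediate score cannot tell partial methylation in all cells from full methylation in some of them.

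For 4 of the genes described below, the sequence around the gene start is shown. Qk, Pdzrn3 and Gpx7 have an island at their start that differed between lung and colon or pancreas, and Nkx2-1 is the defining factor of lung epithelium. The RefSeq sequences (assembly GRCm38.p6) run 5' to 3' from 250 bases before to 50 bases after the gene start, with every CG in capitals. The positions of the array islands further on are those of the scanner files, which name no genome build, and cannot be set against these coordinates.
Qk (chr17:10319312-10319611, minus strand): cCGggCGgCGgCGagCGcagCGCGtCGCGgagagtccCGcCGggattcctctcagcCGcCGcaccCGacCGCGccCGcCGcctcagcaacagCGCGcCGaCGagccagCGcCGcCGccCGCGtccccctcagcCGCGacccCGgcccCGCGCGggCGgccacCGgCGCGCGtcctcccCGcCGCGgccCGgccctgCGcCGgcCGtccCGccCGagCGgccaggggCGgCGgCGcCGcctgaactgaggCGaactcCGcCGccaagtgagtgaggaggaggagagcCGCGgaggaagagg
Pdzrn3 (chr6:101377848-101378147, minus strand): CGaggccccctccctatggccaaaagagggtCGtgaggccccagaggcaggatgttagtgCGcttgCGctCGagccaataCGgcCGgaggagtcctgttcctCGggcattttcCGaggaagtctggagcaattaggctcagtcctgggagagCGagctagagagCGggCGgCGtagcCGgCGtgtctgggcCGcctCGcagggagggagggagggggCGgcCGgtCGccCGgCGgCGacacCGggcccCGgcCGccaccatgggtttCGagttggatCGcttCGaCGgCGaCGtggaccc
Gpx7 (chr4:108406664-108406963, minus strand): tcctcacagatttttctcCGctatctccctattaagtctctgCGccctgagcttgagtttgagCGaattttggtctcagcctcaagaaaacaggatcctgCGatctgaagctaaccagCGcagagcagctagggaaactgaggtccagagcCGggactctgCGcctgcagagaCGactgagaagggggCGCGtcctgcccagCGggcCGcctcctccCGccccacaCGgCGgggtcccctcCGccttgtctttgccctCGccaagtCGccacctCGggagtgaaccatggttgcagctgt
Nkx2-1 (chr12:56536859-56537158, minus strand): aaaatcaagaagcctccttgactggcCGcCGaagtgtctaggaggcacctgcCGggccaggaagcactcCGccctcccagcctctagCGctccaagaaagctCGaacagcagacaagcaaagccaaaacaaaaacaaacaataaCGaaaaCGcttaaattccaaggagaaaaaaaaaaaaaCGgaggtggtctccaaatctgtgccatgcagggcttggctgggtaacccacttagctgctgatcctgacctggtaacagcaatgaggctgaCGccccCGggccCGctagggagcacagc
The Qk window holds 57 CG, and 0.152% of the 32851 RefSeq windows of this length hold as many. Pdzrn3 has 32 CG, a number reached by 9.52% of the windows, Gpx7 has 19, reached by 28.1%, and Nkx2-1 has 12, reached by 39.6%. The median window holds 7. A count of CG describes these letters and is no measure of methylation.

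The 2 lung arrays differed in quality. On lung 1 the input signal stood at 5.84 times its background in the median and 99.0% of the probes had an input well above background. On lung 2 the values were 3.07 times and 62.4%, both lower than on any of the other 14 arrays (3.11 to 6.98 times and 64.0% to 99.3%). Lung 2 also had the largest share of probes with a log ratio of exactly 0, 9.14% against 0.272% on lung 1 and 0.113% to 7.32% on the other arrays. Over all islands the 2 lung arrays correlated with r = 0.845, near the low end of the range for the other pairs of replicates (0.842 to 0.961). Lung 1 was closer to arrays of other tissues than to lung 2. Its correlation with the other 14 arrays was 0.868 to 0.959, highest with spleen 1. Lung 2 correlated with them at 0.830 to 0.914, highest with muscle 1. Lung 1 was scanned on the same day as the replicate 1 arrays of brain, kidney, liver, muscle and spleen, with which it correlated at 0.910 to 0.959, and shared its slide with muscle 1, whereas its correlation with the arrays of other days was 0.868 to 0.932. Lung 2 was scanned on another day, together with liver 2 (0.859). These correlations run over islands of the same arrays and islands are not independent replicates. The scanner headers also name different array designs, with 97651 probes on lung 1 and 88737 on lung 2. Replicate 2 of brain, kidney, liver, muscle and spleen has the design of lung 2, and all other adult arrays that of lung 1. Each Z-score was taken over the probes of its own array, and the part of the design was not tested. The deviations of the 2 lung arrays from the mean of the other tissues correlated at -0.155, and 43.1% of the islands deviated in the same direction on both. The same measure was 0.685 for colon, whose arrays were scanned together, 0.355 for pancreas and -0.275 to -0.027 for the other 5 tissues. Values of single islands are therefore given below for both arrays.

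**Figure D1:**
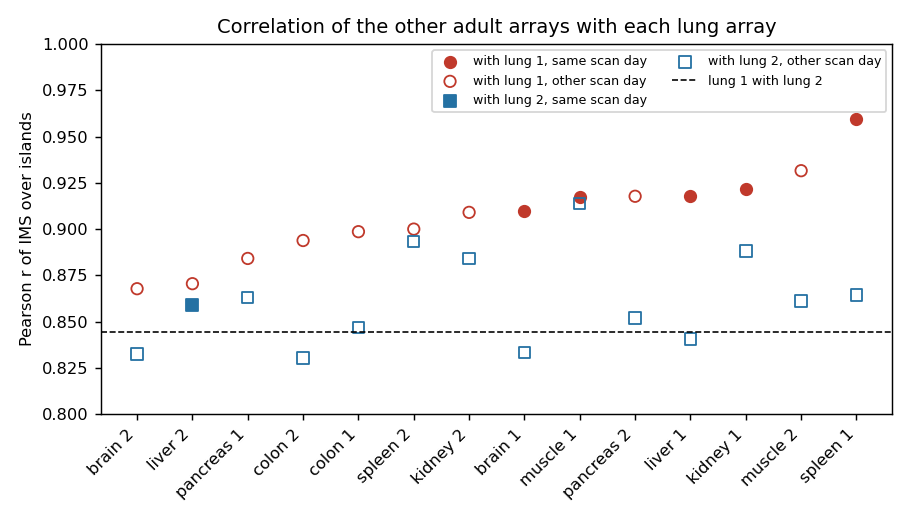
Pearson correlation of the IMS over 13336 islands between each of the other 14 adult arrays and lung 1 (circles) or lung 2 (squares), with filled symbols for arrays scanned on the same day as that lung array and a dashed line for lung 1 with lung 2 (0.845). Every circle lies above the dashed line, and spleen 1 is the highest at 0.959.

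Most islands were unmethylated in lung. On both lung arrays 8002 islands (60.0% of 13336) had an IMS below 0, and 1212 (9.09%) had an IMS above 0.75. Of these 1212, 995 were above 0.75 on all 16 adult arrays, and 4454 islands were below 0 on all 16. The shares varied with position. Within 500 bases of a gene start 1.46% of 8440 islands were methylated on both lung arrays and 70.6% unmethylated, whereas of the 2966 islands farther from every listed start 29.7% were methylated and 35.3% unmethylated. Islands with no gene listed lay between, with 10.8% and 51.6% of 1930.

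Of the 15 gene lists examined, germline genes had the largest share of methylated islands in lung. The list was drawn up from genes known to be methylated in somatic tissue, so its direction is no independent evidence. Of its 17 islands 13 were above 0.75 on both lung arrays, against 9.09% of all islands. Ddx4, an RNA helicase of germ cells, had an IMS of 3.07 on lung 1 and 4.28 on lung 2, with 2.89 to 4.10 on the other 14 arrays. Dazl, an RNA-binding protein of germ cells, had 2.82 and 3.72, with 2.69 to 4.03 on the others. Sycp3, a part of the synaptonemal complex of meiosis, had 2.78 and 3.53, with 2.41 to 3.48 on the others. Lung thus lay inside or just above the range of the other tissues at these starts. The 4 remaining islands, 2 of Zpbp2 and 1 each of Tdrd1 and Ddx25, were below 0 on both lung arrays. The island of the list with the largest difference from the other tissues belonged to Slc25a31, an ADP/ATP carrier of the testis. It had 2.96 and 2.19, with 2.02 to 3.80 on the others, and the difference was -0.53 (95% confidence interval -1.31 to 0.26).

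Imprinted genes came next, with 20 of 32 islands above 0.75 on both lung arrays and 2 below 0 on both. Mest, whose start is methylated on the maternal copy, had 2.53 on lung 1 and 3.22 on lung 2, with 2.23 to 3.55 on the other 14 arrays. Peg3 had 2.42 and 2.14, with 1.95 to 3.07 on the others. Kcnq1 carried a methylated island far inside the gene, with 2.34 and 2.33, and an island at its start, with -0.16 and -0.41. The other arrays had 2.07 to 3.07 at the inner one and -0.36 to 0.19 at the start, where lung 2 fell just below them. The largest difference of the list was at Mcts2, at -0.58 (95% confidence interval -1.22 to 0.07).

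The factors that define lung epithelium had unmethylated islands in lung about as often as all islands do. Of the 44 islands of 21 epithelial transcription factors, 26 were below 0 on both lung arrays (59.1%, against 60.0% of all islands) and 7 were above 0.75 on both (15.9%, against 9.09%). The island of Nkx2-1 (chr12:57450889-57454742, 25 probes, 204 bases from the gene start, inside the gene) had an IMS of -0.71 on lung 1 and -0.11 on lung 2. On the other 14 arrays it ranged from -0.62 to -0.09 with a median of -0.26, so that lung 1 lay below and lung 2 within this range. The difference was -0.11 (95% confidence interval -0.49 to 0.28, limma adjusted p = 0.993), and the 2 lung arrays differed from each other by more than this. The start islands of Foxa2, Sox2 and Cebpa were unmethylated. Foxa2 had -0.60 on lung 1 and -0.18 on lung 2, Sox2 had -0.31 and -0.11, and Cebpa had -0.69 and -0.36. The methylated islands of the list lay away from gene starts, as the one of Mycn 4299 bases inside the gene, with 2.63 and 2.10 and 1.05 to 3.13 on the other arrays. Sox9, a factor of the growing tips of the lung, had an unmethylated island at its start (-0.27 and -0.27) and a second one 1546 bases inside, the largest difference of the list. There lung had 2.10 and 1.00, the others 0.16 to 2.20, and the difference of 0.55 had an interval of -0.51 to 1.61.

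Genes of differentiated lung cells had few islands on the array. The counts of this paragraph stand against shares of 9.09% of all islands above 0.75 on both lung arrays and 60.0% below 0 on both. Of 25 alveolar and airway secretory genes 8 had 1 island each. None of these was above 0.75 on both lung arrays and 4 were below 0 on both. Abca3, the lipid transporter of surfactant bodies, had -0.43 on lung 1 and -0.46 on lung 2, with -0.82 to -0.22 on the others. Of 11 islands of ciliated cell genes none was above 0.75 on both and 7 were below 0 on both (63.6%). Foxj1, the factor that drives cilia formation, had 0.44 and -0.25, with -0.36 to 1.01 on the others. Among mesenchymal factors 9 of 47 islands were above 0.75 on both (19.1%) and 16 below 0 (34%). Branching signals had 4 of 74 (5.41%) above and 50 (67.6%) below, and endothelial genes 7 of 46 (15.2%) and 27 (58.7%). The secreted signals Shh, Fgf9 and Wnt2 were unmethylated at their starts on both lung arrays, and inner islands of Wnt5a, Wnt3a and Wnt7b were methylated. The inner island of Wnt5a, 12804 bases from its start, had 2.89 and 2.80, with 2.34 to 3.77 on the others. The label lung could not be checked against surfactant or secretoglobin genes, since Sftpa1, Sftpb, Sftpc, Sftpd and Scgb1a1 have no scored island.

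**Figure D2:**
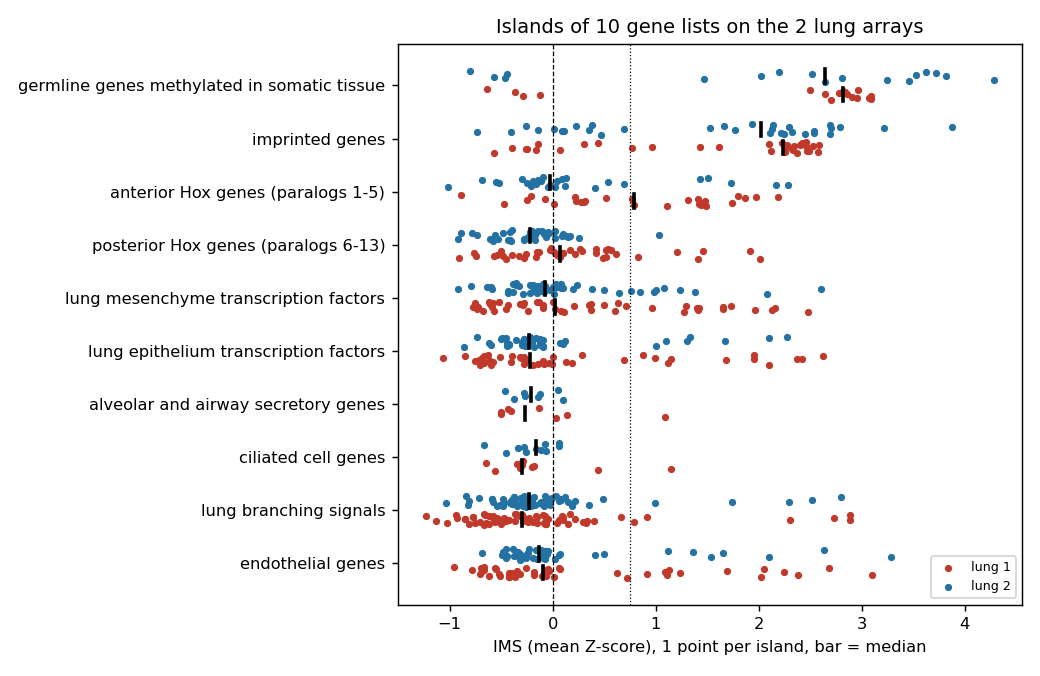
IMS on lung 1 (red) and lung 2 (blue) of the islands of 10 gene lists, with 1 point per island, a black bar for the median, and lines at 0 (dashed) and 0.75 (dotted). Germline and imprinted genes sit to the right on both arrays (medians 2.82 and 2.64, and 2.24 and 2.02), and the anterior Hox genes differ between the arrays (0.79 and -0.02).

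Against the mean of the other 7 tissues no island passed the test in lung. One mean per tissue was fitted with limma over the 16 arrays, with a shared spread on 8 residual degrees of freedom, and lung was set against the mean of the other 7 tissue means. Of 13336 islands 0 (0%) had a Benjamini-Hochberg adjusted p under 0.05, and the smallest was 0.993. At an unadjusted p under 0.05 there were 498 (3.73%), 232 higher (1.74%) and 266 lower (1.99%) in lung. The methods' t-test of 2 against 14 arrays also gave 0 islands after adjustment, and 605 before it. Without lung 2, the array with the weak input, there were again 0 (338 at an unadjusted p under 0.05). Without lung 1 there was 1, an island downstream of Cebpz, which on lung 2 stood at -1.72, on lung 1 at 0.76 and on the others at -0.03 to 0.99. The median difference over all islands was -0.02 and the largest absolute difference 1.15.

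Between lung and single tissues a few islands passed the test, and they were in colon and pancreas. Of 7 comparisons from the same fit, lung against colon gave 14 islands (0.105% of 13336), all lower in lung, and lung against pancreas gave 4 (0.0300%), of which 3 were lower and 1 higher in lung. Lung against brain, kidney, liver, muscle and spleen gave 0 each with limma, with 578, 159, 401, 131 and 220 at an unadjusted p under 0.05, where colon had 1172 and pancreas 918. The 7 comparisons share the lung arrays. All 14 islands of the colon comparison were also among the 107 at which colon differed from the mean of the other 7 tissues (13.1% of those), and at 12 of the 14 both colon arrays were above all other arrays. Of the 4 pancreas islands 3 were among the 8 at which pancreas differed from the mean of the other 7 (37.5% of those). Both kinds of comparison use the same colon or pancreas arrays, with lung among the other 7. The overlap is therefore no independent support. Colon and pancreas are from males and lung from females, and neither shares a scan day with a lung array, so that tissue and scan day cannot be told apart in these comparisons. The other 5 tissues have a male array each, so that a sex term could be fitted. In these 5 tissues the female and male arrays also differ in scan day and array design. The sex term therefore cannot be told apart from these. With sex as a covariate 13 islands were called against colon, 9 of them among the 14, and the same 4 against pancreas.

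Foxa2, the forkhead factor of foregut and lung epithelium, held the clearest case. Its island 8059 bases downstream of the start (chr2:147729981-147730373, 4 probes) had an IMS of -0.70 on lung 1 and -0.86 on lung 2, and of 1.97 and 1.84 on the colon arrays. On the other 12 arrays it ranged from -0.99 to -0.24 with a median of -0.72, so that lung lay among the other tissues and colon apart. The male arrays of the other tissues lay at -0.94 to -0.24, and sex cannot be told apart from scan day and array design, as above. The difference of lung minus colon was -2.69 (95% confidence interval -3.03 to -2.35, limma adjusted p = 9.26e-06). The islands at and before the start of Foxa2 were not called.

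Other developmental genes were called too. Pax8, a paired box factor of kidney and thyroid, had -0.15 on lung 1 and 0.23 on lung 2 at an island 1072 bases inside the gene (chr2:24296057-24296526, 4 probes), and 2.92 and 2.27 in colon. Its other 12 arrays ranged from -0.40 to 0.91, and the difference was -2.55 (-3.28 to -1.82, adjusted p = 0.00938). Mnx1, a homeobox factor of motor neurons and the embryonic pancreas, was called against both tissues (chr5:29804755-29805230, 5 probes, inside the gene). It had -0.07 on lung 1 and -0.18 on lung 2, against 2.69 and 1.96 in colon and 2.69 and 2.84 in pancreas. The difference was -2.46 from colon (adjusted p = 0.0252) and -2.89 from pancreas (adjusted p = 0.0177), and brain, kidney, liver, muscle and spleen were not called against lung there. Lhx3, a LIM homeobox factor of the pituitary, had -0.65 and -0.31 in lung and 1.57 and 1.50 in pancreas at an island inside the gene (chr2:26024022-26025376, 12 probes), with -0.71 to 0.17 on the other 12 arrays. The difference was -2.01 (-2.51 to -1.52, adjusted p = 0.00756).

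Genes with a role in neurons formed another part of the colon calls. Nrn1, which encodes neuritin and acts on neurite growth, had -0.46 on lung 1 and -0.42 on lung 2 at an island downstream of the gene (chr13:36732042-36732375), against 2.10 and 1.77 in colon and -0.82 to -0.18 on the other 12 arrays. The difference was -2.38 (-2.80 to -1.95, adjusted p = 0.000247). Dnm1, the dynamin of synaptic vesicle uptake, had 0.46 and 0.23 against 2.76 and 2.25 far inside the gene (chr2:32134003-32134967). Both lung values lay above the other 12 arrays, whose highest was 0.23 on muscle 2, and the difference from colon was -2.16 (adjusted p = 0.00418). Grm7, a glutamate receptor, had -0.84 and -0.64 at its start against 0.55 and 0.67 in colon (difference -1.36, adjusted p = 0.0198). These genes were grouped by their known roles after the calls were seen, and the grouping was not tested.

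Some calls against colon lay at gene starts. Qk, an RNA-binding protein needed for myelin, had -0.40 on lung 1 and -0.51 on lung 2 at its promoter island (chr17:10162981-10163761, 6 probes), against 1.06 and 1.05 in colon and -0.74 to -0.06 on the other 12 arrays. The difference was -1.51 (-1.91 to -1.10, adjusted p = 0.00707). The sequence with 57 CG shown above is of the RefSeq start of this gene, and the probes were not placed on it. Tmem132d, a transmembrane protein, had 0.15 and -0.26 against 1.61 and 1.34, Prkag3, a subunit of the energy sensor AMPK in muscle, 0.06 and -0.23 against 1.30 and 0.98, and Pdzrn3, a ubiquitin ligase, -0.45 and -0.68 against 0.48 and 0.45. Their differences were -1.53, -1.23 and -1.03, and Pdzrn3, like Grm7, stayed below 0.75 on both colon arrays. The remaining calls against colon were inside Vipr1, the receptor of vasoactive intestinal peptide (-0.05 and 0.36 against 2.50 and 2.18), near Llgl2, a cell polarity gene (0.35 and 0.29 against 1.40 and 1.43), and at 2 islands without a gene name, at chr4:153886581-153887330 (-0.42 and 0.19 against 2.96 and 2.70) and chr12:110635195-110637579 (-0.12 and -0.15 against 1.74 and 1.51). At both unnamed islands pancreas 2 was the highest of the other arrays, at 1.84 and 1.52. In all, 7 of the 14 islands were below 0 on both lung arrays, and at 12 lung was below 0.75 and colon above 0.75 on both arrays.

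Gpx7, a peroxidase of the endoplasmic reticulum, had the lowest adjusted p against pancreas. At its start (chr4:107904174-107904844, 6 probes) it had -0.29 on lung 1 and -0.20 on lung 2, against 1.78 and 1.85 in pancreas. The other 12 arrays ranged from -0.55 to 0.71, with colon 2 the highest, and the difference was -2.06 (95% confidence interval -2.48 to -1.65, adjusted p = 0.00179). Hmg20b, a subunit of a histone demethylase complex, was the only one of these calls that was higher in lung. Inside the gene (chr10:80749589-80750266, 6 probes) it had 2.61 on lung 1 and 2.84 on lung 2, against 1.40 and 1.58 in pancreas and 1.66 to 2.67 on the other 12 arrays. All values are in the methylated range, and the difference was 1.24 (0.87 to 1.61, adjusted p = 0.0288). The count against colon was 2 without colon 1, 5 without colon 2 and 4 without lung 2, and rose to 30 without either kidney array. The pancreas count was 2 without lung 2 or pancreas 1, 0 with limma without pancreas 2 (664 at an unadjusted p under 0.05) and 6 without either brain or either liver array. After a normexp background correction, chosen after the data were seen, 1 island (the unnamed one on chromosome 4) was called against colon and 0 against pancreas (332 and 480 at an unadjusted p under 0.05). The methods' t-test gave 0 for both (981 and 686). None of the 18 differences changed sign under the alternatives run on them. Female arrays alone and scan day as a fixed block were not among these, since both leave out colon and pancreas. The islands were selected for these differences in the same data, so the kept signs are no independent support.

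A second way to ask for a lung pattern is to count islands at which both lung arrays lay beyond all 14 others. There were 63 above (0.472% of 13336) and 67 below (0.502%), and none had an adjusted p under 0.05. The same count, above and below together, was 971 for colon, 320 for pancreas, 200 for brain, 130 for lung, 84 for liver, 83 for spleen, 48 for muscle and 23 for kidney. The gaps were narrow, with a median distance to the nearest other array of 0.04 on either side. Of the 67 islands below all others 66 had an IMS below 0 on both lung arrays, and of the 63 above all others 3 were above 0.75 on both. The islands above lay inside genes in 71.4% and those below in 47.8%, where 61.7% of all islands do, and 65.1% and 70.1% lay within 500 bases of a start, against 63.3% of all. Of the 5 embryo arrays all lay on the same side of lung at 24 of the 63 islands and 58 of the 67. The share over all islands was not computed. Since the islands were selected for extreme lung values, the embryo counts are no independent support. The counts of 63 and 67 moved with the processing. When only probes with an input well above background were kept, there were 83 above and 1 below among 8715 islands, and after a normexp background correction there were 47 and 182.

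The islands named next were chosen after their values were seen, as the 6 islands with a gene name and the largest difference on each side. All have a limma adjusted p of 0.993. Lrrc8d, a subunit of the volume-regulated anion channel, was the highest in difference (chr5:105940829-105941197, 3 probes, 38 bases from the start). It had 0.24 on lung 1 and 0.37 on lung 2, and -1.36 to -0.08 with a median of -0.48 on the other 14 arrays. The difference was 0.82 (95% confidence interval 0.31 to 1.32, unadjusted p = 0.00405), and on the 5 arrays scanned with lung 1 the values were -1.36 to -0.08 and on liver 2, scanned with lung 2, -0.73. Pitx1, a homeobox factor of the hindlimb, had 0.03 and -0.20 near its start against -0.82 to -0.21 on the others. Its difference was 0.50 (0.25 to 0.75, unadjusted p = 0.000972), and liver 2 stood at -0.59. Cst6, a cysteine protease inhibitor, had 0.44 and 0.95 against -0.22 to 0.36. Nyap1, a signalling adaptor of neurons, had 0.31 and 0.44 against -0.51 to 0.14. Tnxb, the matrix protein tenascin X, and Chst5, a sulfotransferase, were methylated in most tissues and highest in lung, with 2.49 and 2.89 against 1.39 to 2.47 and with 1.58 and 1.63 against 0.45 to 1.44. None of the 6 changed sign under the alternatives run, where the smallest difference was 0.145 at Pitx1. With an array left out, or with a test of 2 groups on the same scores, the selection of these islands fixed the sign in advance. The kept sign is therefore no independent support.

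On the low side Mpzl1, a membrane protein related to myelin protein zero, had -1.20 on lung 1 and -1.28 on lung 2 (chr1:167479066-167479453, 4 probes). The other 14 arrays ranged from -0.95 to -0.16 with a median of -0.43, and the difference was -0.73 (95% confidence interval -1.09 to -0.36, unadjusted p = 0.000882). Ccn2, a growth factor of connective tissue, had -0.26 and -0.27 at its start, just under the lowest of the others (-0.18 on liver 1), which reached 1.17 on kidney 1. Lipg, the endothelial lipase, had -0.41 and -0.36 at its start against -0.34 to 0.64. Slc25a39, a mitochondrial carrier, had -1.15 and -1.15 against -0.92 to 0.41, and Hmx1, a homeobox factor, -0.71 and -0.70 against -0.57 to 0.28. Serpinh1, the chaperone of collagen, was the only methylated one, with 1.85 and 1.50 against 1.88 to 2.80 and a difference of -0.61 (-0.93 to -0.29, unadjusted p = 0.00138). The embryo arrays had 2.32 to 2.80 at Serpinh1, also above lung. The same-day gaps of lung 1 were narrower than these differences. Lung 1 minus the mean of the 5 arrays of its scan day was -0.37 at Slc25a39, where the difference was -0.80, and -0.24 at Hmx1, where it was -0.58, with -0.55 to -0.24 over the 6 islands. Lung 2 minus liver 2 was -0.96 to -0.40. None of these 6 changed sign under the alternatives run, where the selection again fixed part of the outcome. With the normexp correction the difference came to -0.0034 at Lipg (from -0.61), -0.075 at Ccn2 (from -0.63) and -0.099 at Mpzl1 (from -0.73).

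**Figure D3:**
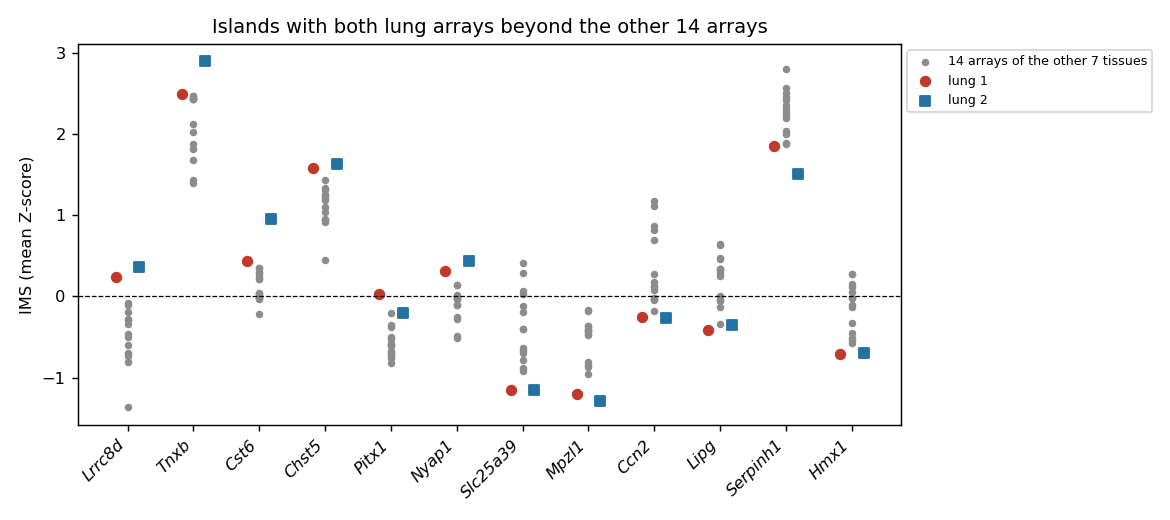
IMS at the 6 islands with a gene name and the largest difference on each side among those where lung 1 (red circle) and lung 2 (blue square) both lay above or below the other 14 adult arrays (grey), with a dashed line at 0. Tnxb and Serpinh1 are above 0.75 on every array, and at Ccn2 lung (-0.26 and -0.27) lies just under the lowest grey point (-0.18).

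The 2 lung arrays disagreed at many islands. The SD over islands of the deviation from the mean of the other tissues was 0.268 on lung 1 and 0.360 on lung 2. For the other 14 arrays it was 0.229 to 0.335, so lung 2 deviated most. An IMS above 0.75 on lung 1 and not on lung 2 was found at 440 islands and the reverse at 63. At 133 islands lung 1 was above 0.75 and lung 2 below 0, and at 17 the other way round. At the 133 islands the other arrays above 0.75 were of several tissues, at 82 islands (61.7%) muscle 2, at 59 (44.4%) spleen 1 and at 9 (6.77%) muscle 1. The remaining arrays were above 0.75 at 15 (liver 2, 11.3%) to 42 (colon 1, 31.6%) of the 133. Over all 13336 islands, 1530 were above 0.75 on muscle 2, 1611 on spleen 1 and 1313 on muscle 1. Muscle 2 was not scanned with lung 1. Spleen 1 and muscle 1 were, as were liver 1 (30.8%), brain 1 (21.1%) and kidney 1 (17.3%). The part of scan day was not tested. Of the gene lists, anterior Hox genes had 7 of 27 islands among the 133, posterior Hox genes 6 of 41, muscle factors 6 of 39 and kidney and spleen factors 6 of 46. Brain factors had 5 of 70 and lung epithelial factors 3 of 44, where 133 of 13336 of all islands belong to the set. The other lists had at most 2, and germline and imprinted genes none. Hox genes specify position along the body axis.

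Hoxc6, with 2.01 on lung 1 and -0.58 on lung 2, and 2 islands before Hoxa11, with 1.92 and -0.88 and with 1.46 and -0.48, were of this kind. The leading islands of several lists were too. Lhx2, a LIM homeobox factor of the forebrain, had 2.31 on lung 1 and -0.43 on lung 2, with -0.89 to 2.16 on the others and muscle 2 the highest. Six2, a factor of kidney progenitors, had 2.05 and -0.77, with -0.65 to 1.91 on the others. Lbx1, a factor of migrating muscle precursors, had 1.72 and -0.64, with -0.98 to 1.35 on the others. At both, muscle 2 was again the highest. The secretory gene Muc1, a mucin, had 1.09 and -0.38, and the ciliary gene Tekt1 had 1.15 and -0.06, with muscle 2 the highest of the others at both. Without lung 1 the difference changed sign at each of Lhx2, Six2, Lbx1, Muc1, Tekt1, Hoxc5 and Hoxc8. What remains is lung 2 minus the other tissues, so the change of sign restates the low values of lung 2 there. The part of the weak input of lung 2, and of any difference between the sampled animals, in the disagreement of the lung arrays was not tested.

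Not all Hox islands differed between the lung arrays. Hoxb3 had 3 islands above 0.75 on both, as the one 262 bases from a start with 1.74 and 2.28, and Hoxa5, a Hox gene active in lung, had 1.98 and 1.43. The other arrays ranged from -0.48 to 2.52 at the former and from -0.33 to 3.57 at the latter, and neither passed the test against the mean of the other tissues. Over the lists the median difference of lung from the other tissues was 0.23 for the 41 islands of posterior Hox genes (0.36 on lung 1 and 0.05 on lung 2) and 0.18 for the 39 islands of muscle factors (0.32 and 0.02), with -0.02 for all islands (-0.06 and 0.02). For some lists the 2 arrays lay on opposite sides of the other tissues. Anterior Hox genes had a median of 0.07, with 0.36 on lung 1 and -0.16 on lung 2. Factors of liver, pancreas and colon had -0.02, with -0.15 and 0.14, and those of kidney and spleen 0.09, with 0.14 and -0.04. Blood and immune genes had 0.02, with -0.04 and 0.03, and brain factors 0.02, with -0.06 and 0.01. These 2 lists lay near the values of all islands (-0.06 and 0.02). Epithelial factors had -0.05, with 0.0012 and -0.16. On the same side on both arrays, the median was 0.09 for mesenchymal factors (0.19 and 0.0039), -0.08 for branching signals (-0.11 and -0.04), -0.04 for endothelial genes (-0.04 and -0.05), -0.07 for germline genes (-0.17 and -0.09) and -0.14 for imprinted genes (-0.18 and -0.13). For alveolar and airway secretory genes and for ciliated cell genes it was -0.0016 (0.02 and 0.05) and 0.0011 (-0.07 and -0.11). No island of the 15 lists was called against the mean of the other tissues.

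Other islands that led their lists did not pass the test either. Lyl1, a factor of blood stem cells, had 1.85 on lung 1 and 1.12 on lung 2 downstream of the gene, with 0.01 to 1.87 on the others (difference 0.76, 95% confidence interval 0.06 to 1.45, adjusted p = 0.993). Nr2f1, a nuclear receptor, had 1.65 and 2.61 inside the gene, with -0.19 to 2.28 on the others (difference 0.73, interval -0.19 to 1.65). Plvap, an endothelial diaphragm protein, had 2.24 and 0.50 at its start, with 0.04 to 3.12 on the others (difference -0.40, interval -1.66 to 0.85). Pdgfa, a ligand needed for alveolar myofibroblasts, had -0.06 and -0.29 before its start, with -0.59 to 0.95 on the others (difference -0.39, interval -1.03 to 0.26).

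**Figure D4:**
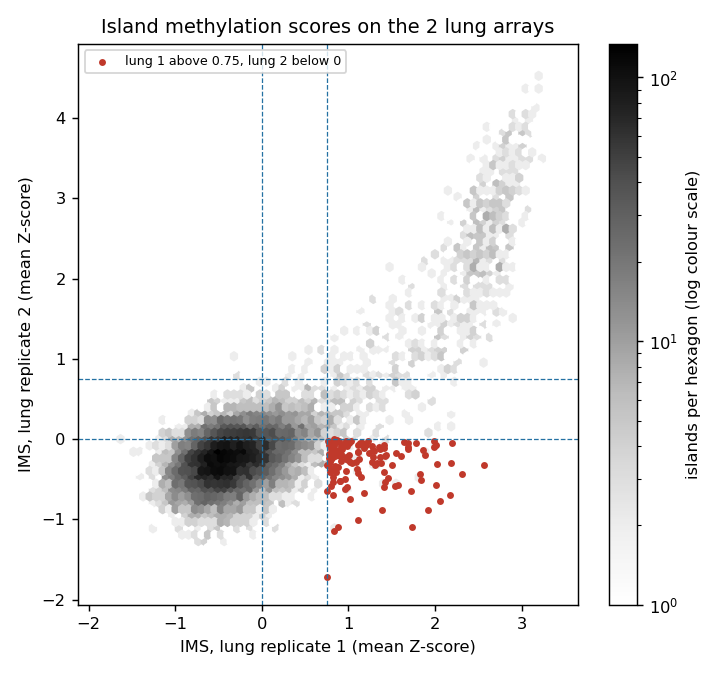
IMS of 13336 islands on lung 1 (x axis) against lung 2 (y axis) as hexagons shaded by the number of islands on a log scale, with dashed lines at 0 and 0.75. The red points are the 133 islands with lung 1 above 0.75 and lung 2 below 0.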

How the data were processed

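DNA of 8 adult tissues was measured by mDIP on 16 two-colour arrays. The authors' Feature Extraction files give spot intensities, with flags, and the log10 ratio of bound (Cy5) over input (Cy3) after background subtraction and dye normalization. The log ratio is exactly 0 where neither channel was usable. A second table deposited by the authors gives each probe as a standardised score, made per the methods with a step for probe Tm, and served only as an alternative. Aligner and genome build do not apply or are not given in the sources used here.

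Control and flagged spots and 492 probes without coordinates were left out, log10 ratios were turned into Z-scores per array (without the Tm step, as no probe sequences were used), and probes with gaps of at most 500 bases were joined to islands of at least 3 probes. Positions were taken from the adult files, as 6 other arrays' files give other positions. Chromosomes X and Y were left out. One X-linked gene is not reported here. Of the gene names 8470 are current RefSeq symbols, 1989 are synonyms and 94 were unmatched. Tests used limma 3.58.1 (lmFit, eBayes) in R 4.3.3 with Benjamini-Hochberg adjustment over 13336 islands, a threshold of 0.05, and steps in Python 3.11.15 with pandas 2.3.3. The fit was first tested on simulated data with known changes. The number of arrays limits the precision. Intervals are 95% confidence intervals from limma. The members, gene lists and tests were chosen with earlier results of these data known.

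The rule for named islands was the 12 largest differences on each side among islands called and beyond all other arrays (0 qualified), the called members of each list or its largest difference, and Nkx2-1. Islands called against single tissues and the 12 beyond the other arrays were added after values were seen. Alternatives were run for standardisation, scale, source, background, dim probes, island definition, test, arrays, weights, sex, slide, scan day, replicate block and each array left out.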

Additional observations from a re-analysis of the deposited data

Results flagged for a closer look

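The X-linked islands were left out of all comparisons, and on both lung arrays they stood above the level in the male arrays. Their mean IMS over 380 islands was 1.71 on lung 1 and 0.921 on lung 2. On the 9 male adult arrays it was 0.134 to 0.292, and on the other 5 female arrays 1.31 to 1.88, so that lung 2 lay between the male and the other female arrays. Each of the 380 islands was also compared with all 9 male arrays. Lung 1 was above all of them at 326 islands (85.8%), lung 2 at 268 (70.5%) and both at 257 (67.6%), where the other female arrays had 301 to 329. The part of the weak input of lung 2 in its lower mean was not tested. No group has a size at which single outlying arrays could be tested.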

How the results depend on the processing

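Lung against the mean of the other 7 tissues was refitted under 37 alternatives. It gave 0 islands in all but 2, with 158 to 1686 at an unadjusted p under 0.05. The deposited table gave 1 among 6596 islands, Hmg20b (0.79 higher in lung, limma adjusted p = 0.0285), and with one array left out the range was 0 to 1, the 1 without lung 1. Islands both called and beyond all other arrays also ranged from 0 to 1 with one array left out. With the replicate block the counts were 0, 14 against colon and 4 against pancreas. The numbers were not taken as pairs, since the labels tie them to no shared animal or day and the differences of replicate 1 minus 2 correlated at -0.319 to 0.467 over 28 pairs of tissues. In brain, kidney, liver, lung, muscle and spleen, however, all replicate 1 arrays are female and share a scan day and an array design.

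The count against colon was 14. It was 2 with the median and median absolute deviation, 32 without log ratios of exactly 0, 23 with the median of probes, 1 with normexp, 51 with 2 groups, 0 with the methods' t-test, 84 with all 34 arrays and 2 to 30 with one array left out. The count against pancreas was 4. It was 2 with the median and median absolute deviation, 2 on the log2 scale, 0 with normexp, 9 with 2 groups, 0 with the methods' t-test, 2 with array weights and 0 to 6 with one array left out. The causes were not tested.

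Of 1601 values of named islands 17 changed sign. With scan day as a block Nr2f1 came to -0.040, Plvap to 0.546 and Mnx1 to 0.357, and with female arrays Mnx1 came to 0.352. Both fits leave out colon and pancreas, the tissues with the highest values at Mnx1. Nkx2-1 came to 0.093 with the deposited table, 0.095 without dim probes, 0.0877 with sex as a covariate and 0.0971 with female arrays. With one array left out the differences ranged from -0.358 to 1.11 at Muc1, -0.280 to 0.938 at Tekt1, -1.28 to 0.472 at Plvap, -0.097 to 1.53 at Hoxc5, -0.105 to 1.72 at Hoxc8, -0.548 to 2.19 at Lhx2, -0.092 to 2.27 at Lbx1, -0.564 to 2.26 at Six2 and -0.407 to 0.197 at Nkx2-1.

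The normexp correction, the omission of log ratios of 0 and a pair of scan day fits were chosen after seeing the data. A fixed block for slide, GC bins and software version could not be run. Scan day as a fixed block left 12 arrays of 6 tissues, without colon and pancreas. Lung 2, with 62.4% of its input probes well above background, limits every lung mean.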

Other observations

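In female mammals one X chromosome is silenced in each cell and the CpG islands at most of its gene starts become methylated, while genes that escape the silencing stay free of it. At the start islands of 9 genes that do not escape, lung 1 was above 0.75 at all 9 and lung 2 at 7. Zfx, a zinc finger factor, had an IMS of 2.28 on lung 1 and 2.32 on lung 2, with at most 0.656 on the 9 male arrays. Usp9x, a deubiquitinase, had 2.15 and 1.47, with at most 0.316 in males. Hprt, a purine salvage enzyme, had 1.91 and 1.06, with male values from -0.0750 to 1.14, so lung 2 lay within the male range there. Atrx, a chromatin remodeller, had 1.99 and 0.674, with at most 0.132 in males, and lung 2 lay below the lowest other female array (1.66). Pgk1, an enzyme of glycolysis, had 1.41 and 0.669, with at most 0.671 in males, so that lung 2 lay within the male range there too.

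The escape genes behaved otherwise. Kdm6a, a histone demethylase, had -0.793 on lung 1 and 0.0670 on lung 2, with -0.603 to -0.445 on the other female arrays and -0.298 to -0.0393 on the male arrays. Ddx3x, an RNA helicase, had -0.727 and 0.288, with -0.326 to -0.0869 on the male arrays. Eif2s3x, a translation factor, had -0.877 and -0.383, with -0.411 to 0.179 on the male arrays. Kdm5c, another histone demethylase, had -0.840 and 0.308, with -0.875 to -0.460 on the other female arrays and -0.587 to 0.325 on the male arrays. Lung 2 thus lay within the male range at Eif2s3x and Kdm5c, and above it at Kdm6a and Ddx3x. At all 4 genes lung 2 was above the other female arrays, while at 8 of the 9 other genes examined it was below lung 1. These 13 genes were chosen after values of X-linked islands had been seen, and no test was run.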
